A study of Mus musculus with 4 samples.

Results

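Ecrg4, Cryab, Clu, Sema6d and Steap4 are 5 genes, of 14082 listed, whose RNA was steeply higher in the libraries labelled KO than in those labelled WT. They were chosen by the size of that rise, measured from the read counts of the same 4 libraries, so their levels and fold changes are given as a description with no test. As described, the libraries hold bulk RNA of CD8 T cells that recognise ovalbumin, sorted out of E.G7 tumours. RNA of macrophage markers was also abundant in all 4 libraries, with values given below. E.G7 cells are EL4 mouse T lymphoma cells that carry ovalbumin. The 2 libraries labelled WT came from hosts of genotype Smad4-fl/fl and the 2 labelled KO from hosts described as Cd8-cre with Smad4-fl/fl, so floxed Smad4 was common to both groups. The hosts were 6 to 10 weeks old when the tumour cells were injected under the skin, and no further treatment is given. Cd8-cre acts in cells that use Cd8 regulatory sequences, so other cells in a sorted sample need not lose Smad4.

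The 5 genes encode proteins of unlike kinds. Ecrg4 encodes augurin, a small precursor that is held at the cell surface or secreted and is cut into peptides, and that has been described on blood leukocytes. Cryab encodes alpha-B crystallin, a small heat shock protein that holds unfolding proteins without using ATP and is best known from lens and muscle. Clu encodes clusterin, also called apolipoprotein J, a secreted chaperone that binds misfolded extracellular proteins and blocks assembly of the terminal complement complex. Sema6d encodes a transmembrane semaphorin, a guidance ligand read by plexin receptors. Steap4 encodes a membrane reductase that converts ferric iron and cupric copper to the forms that cells import.

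Summed gene counts ran from 24366540 to 26218277 per library. Smad4 counts were 752 and 736 under the WT label and 779 and 1088 under the KO label, so the targeted gene was not lower under the KO label (log2 fold change 0.19, edgeR adjusted p = 0.397, range 0.00806 to 0.784 over the alternatives). Without KO replicate 1 it was called higher, at 0.40. Smad4 counts were taken over the whole gene, so loss of a part of it was not tested. All directions below are therefore between labels. Because these are bulk samples, more cells that express a gene and more RNA per cell cannot be told apart. Nothing in the labels ties the libraries of a group to different animals, so a p-value reflects the spread of these samples alone, and that spread may be technical.

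Ecrg4 had the largest fold change of the 5. Its counts were 64 and 82 under the WT label and 908 and 939 under the KO label. In CPM (counts scaled to library size with TMM factors) that was 2.70 and 3.28 against 34.1 and 34.8. The groups did not overlap, and the lower KO library stood 10.4-fold above the higher WT library. The fitted log2 fold change was 3.52 with a standard error of 0.16, 11.5-fold. Per length, Ecrg4 was at 2.88 and 3.51 FPKM (fragments per kilobase of exon, scaled to library size, as deposited) under WT and at 36.7 and 37.3 FPKM under KO. That placed it at the 44.5 and 48.8 percentile of listed genes in the WT libraries and at 89.4 and 89.7 in the KO libraries. GENCODE M21, an annotation of mm10, lists it under the older symbol 1500015O10Rik, as a protein-coding gene with 4 exons on the plus strand of chromosome 1 from 43730602 to 43742578.

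**Figure D1:**
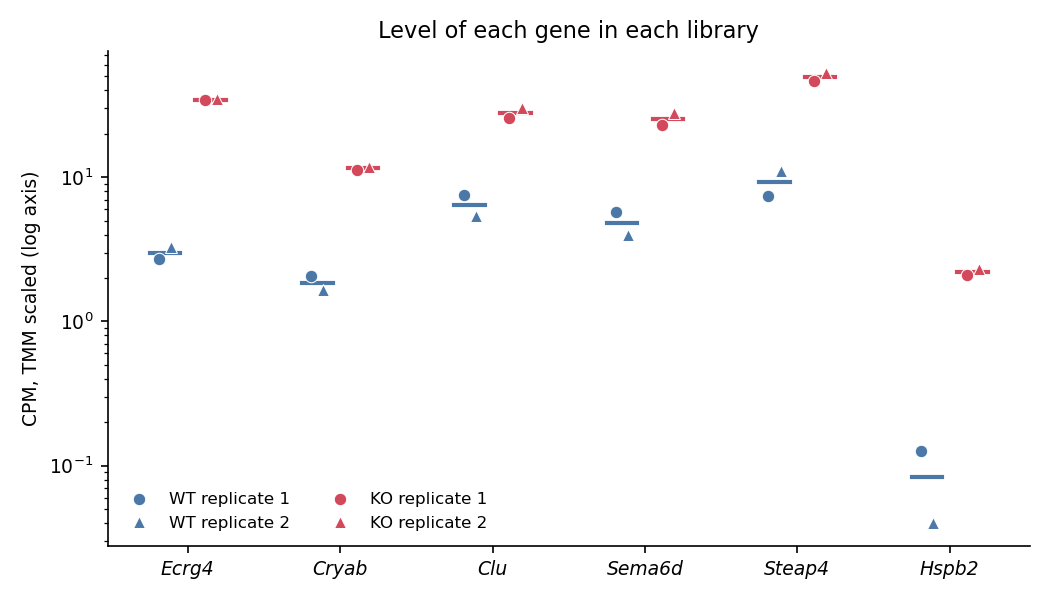
Level of each of the 5 genes and of Hspb2, which overlaps Cryab, in TMM-scaled CPM on a log axis. Points are single libraries and bars the means of 2 libraries; for each gene both red KO libraries lie above both blue WT libraries.

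Steap4 counts were 175 and 276 under the WT label and 1229 and 1417 under the KO label, equal to 7.39 and 11.0 CPM against 46.2 and 52.5 CPM. The WT libraries stood apart by 1.5-fold, more than counting error allows (95% interval 1.23 to 1.82, from the exact binomial interval of the counts, which covers counting error only). The groups still did not overlap, with the lower KO library 4.19-fold above the higher WT library. The fitted log2 fold change was 2.42 with a standard error of 0.16, 5.34-fold. The gene is protein coding, with 5 exons on the plus strand of chromosome 5 from 7960457 to 7982213 (mm10).

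Ecrg4 had the largest fold change and Steap4 the largest KO counts, and the 250 bases before their RefSeq start sites are shown because both were high in the same libraries. The sequences are from RefSeq on GRCm38.p6, plus strand, at chr1:43730352-43730601 for Ecrg4 and chr5:7960222-7960471 for Steap4, where the RefSeq start lies slightly downstream of the GENCODE start. Capitals mark matches to any of 6 motifs searched on both strands. The core of the heat shock element was searched as TTCNNGAA and the C/EBP motif as TTGCNNAA. The TATA box was searched as TATAAA, and the core of the SMAD binding element was taken to be CAGAC. The AP-1 motif was searched as TGANTCA, and the last was the NF-kappaB motif.
Ecrg4: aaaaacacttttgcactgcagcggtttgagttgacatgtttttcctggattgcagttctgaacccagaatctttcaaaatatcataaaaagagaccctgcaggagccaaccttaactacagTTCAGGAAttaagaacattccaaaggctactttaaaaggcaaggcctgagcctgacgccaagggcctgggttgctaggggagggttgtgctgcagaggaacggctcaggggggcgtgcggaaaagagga
Steap4: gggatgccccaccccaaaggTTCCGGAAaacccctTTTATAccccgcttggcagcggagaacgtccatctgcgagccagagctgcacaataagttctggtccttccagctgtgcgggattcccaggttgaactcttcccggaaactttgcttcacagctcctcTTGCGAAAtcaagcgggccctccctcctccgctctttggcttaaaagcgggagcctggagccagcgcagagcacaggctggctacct
The Ecrg4 window held TTCAGGAA, a match to TTCNNGAA, 129 bases before the start site. The Steap4 window held TTCCGGAA, another match to TTCNNGAA, 230 bases before the start site, with TTTATA, the reverse complement of TATAAA, at 215 and TTGCGAAA, a match to TTGCNNAA, at 87. TTCNNGAA reads the same on both strands, and these matches did not overlap each other. Among 32851 promoter windows of the same length, 7.17% held TTCNNGAA, 12.4% TATAAA and 9.56% TTGCNNAA, while 6.75% held TGANTCA and 0.98% the NF-kappaB motif. Sema6d had 2 windows, and their only match was CAGAC on the reverse strand of the second, a motif that 42.2% of all windows held. A match is a description of letters, and binding was not measured. RefSeq windows were found for 3 of the 5 genes; those of Cryab and Clu are not analysed here.

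Cryab counts were 49 and 41 under the WT label and 299 and 315 under the KO label, equal to 2.07 and 1.64 CPM against 11.2 and 11.7 CPM. Within each group the libraries differed by no more than counting error allows, and the lower KO library was 5.44-fold above the higher WT library. The fitted log2 fold change was 2.63 with a standard error of 0.24, 6.18-fold. The gene is protein coding, on the plus strand of chromosome 9 from 50751325 to 50756636 (mm10). Hspb2, another small heat shock protein gene, overlaps its start on the minus strand, from 50751078 to 50752354. The genes share 252 exonic bases, which is 17.0% of the exon length of Cryab and 30.2% of that of Hspb2, all in the first exon of 1 of 6 annotated Cryab transcripts. How the counting used strand is not given in the sources used here, so reads from the shared bases cannot be assigned and both genes are uncertain.

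**Figure D2:**
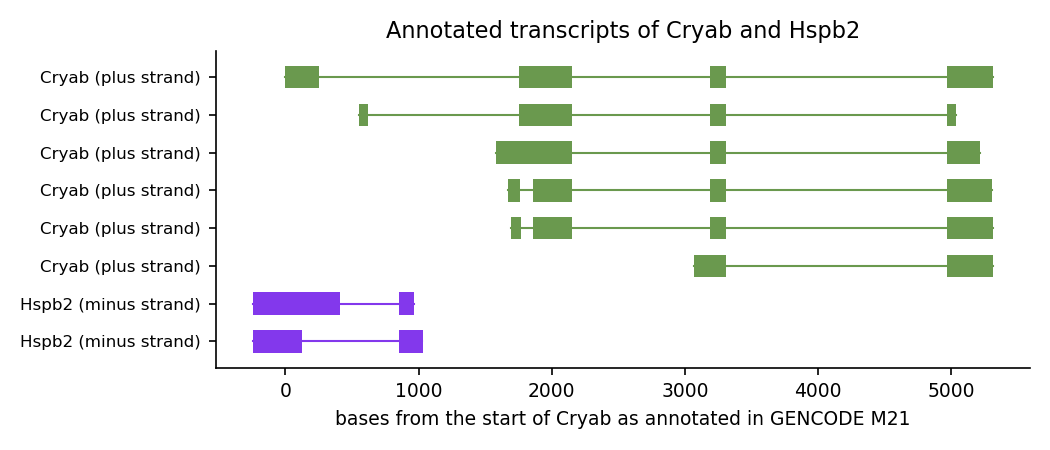
Annotated transcripts of Cryab (green, plus strand) and Hspb2 (purple, minus strand), with boxes for exons and lines for introns, in bases from the annotated start of Cryab. Only the first exon of the top Cryab transcript lies over Hspb2 exons, with 252 shared bases.

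Hspb2 counts were 3 and 1 under the WT label and 56 and 62 under the KO label, 0.127 and 0.040 CPM against 2.11 and 2.30 CPM. The ratio of summed counts, scaled to library size, was 26.8 (95% interval 10.2 to 100.0, counting error only). Hspb2 passed the filter on low counts only through the KO libraries, which favours a higher level under KO. Its call is left out of the count of its family below. Cryab counts less all Hspb2 counts were 46 and 40 under WT and 243 and 253 under KO. Cryab was chosen for its rise in these counts and Hspb2 counts were far fewer, so this difference tests nothing. It does not measure how many reads from the shared bases were given to either gene. Per Hspb2 count there were 16.3 and 41.0 Cryab counts under WT and 5.34 and 5.08 under KO.

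Of 6 tested small heat shock protein genes besides Cryab, Hspb2 and Hspb7 reached the filter's minimum in the KO libraries only, which favours a higher level under KO, and they are left out of the count. Of the 4 that reached it under both labels, Hspb1 was higher and 3 did not pass (edgeR quasi-likelihood test, Benjamini-Hochberg adjusted p under 0.05), with a median log2 fold change of 0.03. None of the 6 was lower, and at an unadjusted p under 0.05 or with DESeq2 or limma-voom the number lower was 0 too. Across all 13358 tested genes 10.1% were higher and 11.0% lower, and the median log2 fold change was -0.00372. Hspb1, which encodes the chaperone HSP27, rose from 12.7 and 11.4 CPM to 26.2 and 27.2 CPM. Its log2 fold change was 1.14 with a standard error of 0.14 (edgeR adjusted p = 6.94e-05). Hspb7, a small heat shock protein gene of heart and skeletal muscle, was at 8 and 7 counts against 24 and 32 and did not pass (edgeR adjusted p = 0.0952).

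Hspb6, Hspb8 and Hspb11 did not pass either, with log2 fold changes of -0.11, -0.39 and 0.18. The sign changed for Hspb6 without WT replicate 2 and for Hspb8 without KO replicate 2. Hspb9 had 2 to 13 counts and was not tested, and Hspb3 and Cryaa were not analysed here. Of 3 heat shock factor genes and Bag3, which encodes a partner of small heat shock proteins and HSP70, Bag3 alone passed, at 45.9 and 46.4 CPM against 63.9 and 68.8 CPM (log2 fold change 0.52, edgeR adjusted p = 0.000837).

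**Figure D3:**
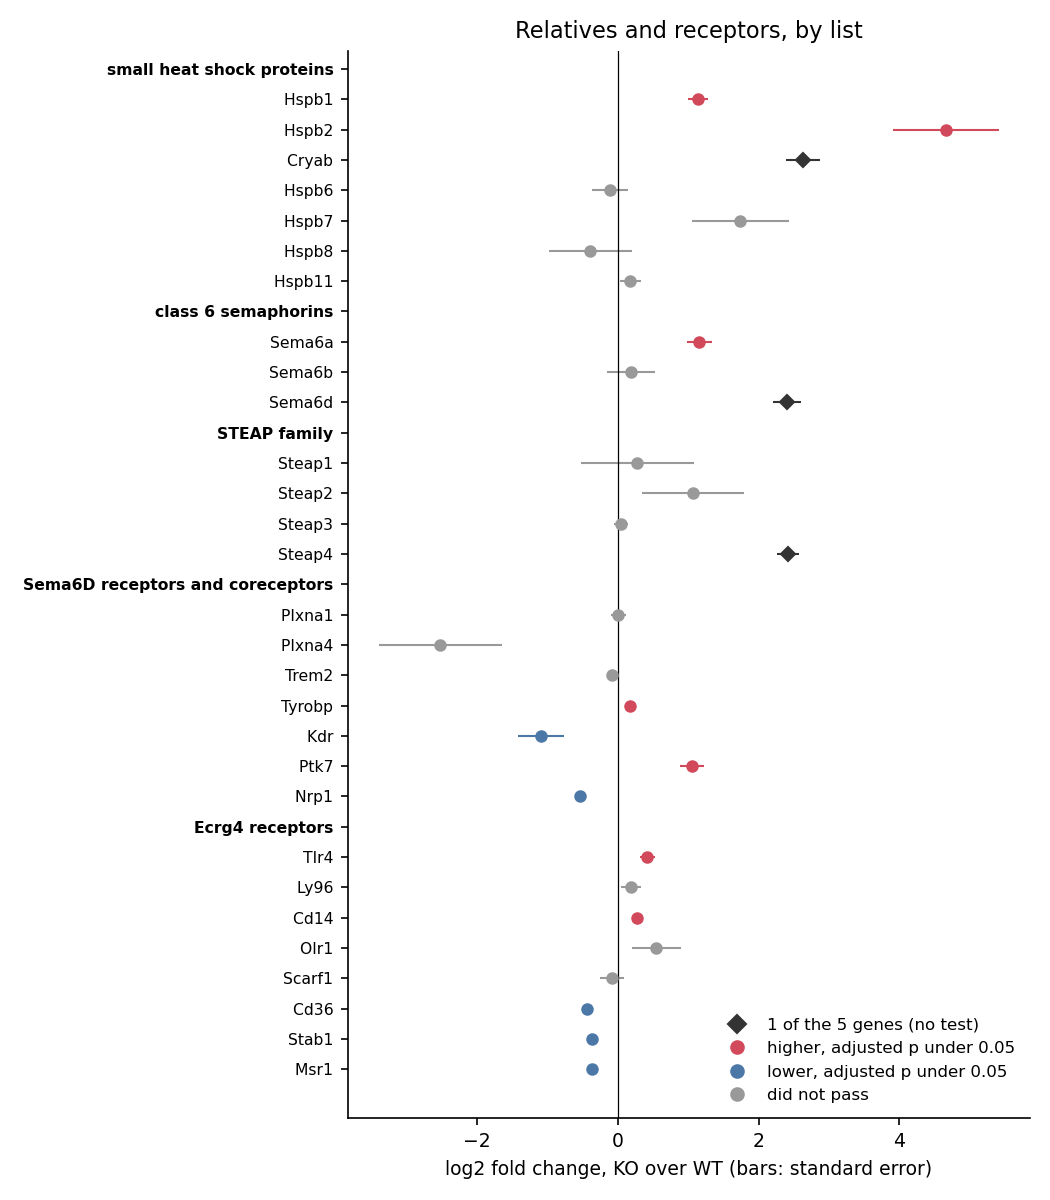
Log2 fold change, KO over WT, with its standard error for tested relatives of Cryab, Sema6d and Steap4 and genes of the Sema6D and augurin receptor lists. Red points were higher and blue points lower at an adjusted p under 0.05, and grey points did not pass. Black diamonds are Cryab, Sema6d and Steap4, which were not tested. Hspb1, Sema6a and Ptk7 lie at 1.14, 1.16 and 1.06. Hspb2 is drawn red but reached the filter's minimum in the KO libraries only, which favours such a call.

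Clu counts were 177 and 134 under the WT label and 687 and 813 under the KO label, equal to 7.47 and 5.36 CPM against 25.8 and 30.1 CPM. Under both labels the libraries differed by more than counting error, with WT replicate 2 at 0.718 times replicate 1 (95% interval 0.569 to 0.903) and KO replicate 2 at 1.17 times (1.05 to 1.29). The groups did not overlap, and the lower KO library was 3.46-fold above the higher WT library. The fitted log2 fold change was 2.13 with a standard error of 0.18, 4.37-fold, the smallest of the 5. Clu is protein coding, on the plus strand of chromosome 14 from 65968483 to 65981547 (mm10), with 9 annotated transcripts.

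Among genes for receptors of clusterin, Lrp1, a scavenging receptor gene, fell from 314 and 306 CPM to 202 and 235 CPM (log2 fold change -0.50, edgeR adjusted p = 0.000232). Lrp8 and Vldlr, which encode reelin receptors, had log2 fold changes of 0.42 and 0.54 and did not pass (edgeR adjusted p = 0.144 and 0.670), and Vldlr reached the filter's minimum in the KO libraries only. Trem2, a myeloid lipid receptor gene, was at 98.8 and 104 CPM against 92.0 and 99.4 CPM, with overlapping groups and a sign that flipped with library totals alone as the scaling.

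Of 6 tested genes for apolipoproteins, an apolipoprotein receptor and cholesterol transporters (Apoe, Apoa2, Apod, Apobr, Abca1 and Abcg1), Apoe, the main lipid carrier of macrophages, was higher and 5 did not pass. Apoe rose from 2321 and 2453 CPM to 3345 and 3207 CPM (log2 fold change 0.46, edgeR adjusted p = 5.67e-05). Of 4 genes of terminal complement and its regulators that reached the filter's minimum under both labels, Cd55 was lower and 3 did not pass, and 2 more that reached it in the WT libraries only did not pass either. Cd55, whose product speeds the decay of complement convertases, fell from 22.3 and 22.6 CPM to 5.94 and 6.41 CPM (log2 fold change -1.86, edgeR adjusted p = 3.99e-06). DESeq2, limma-voom and an unadjusted edgeR p under 0.05 likewise gave 0 lower genes in the first of these lists and 0 higher genes in the second.

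Sema6d counts were 135 and 99 under the WT label and 609 and 752 under the KO label, equal to 5.70 and 3.96 CPM against 22.9 and 27.9 CPM. WT replicate 2 was at 0.695 times replicate 1 (95% interval 0.531 to 0.908) and KO replicate 2 at 1.22 times (1.09 to 1.36). The groups did not overlap, and the lower KO library was 4.02-fold above the higher WT library. The fitted log2 fold change was 2.40 with a standard error of 0.20, 5.26-fold. Its exons cover 10559 bases in GENCODE M21, the longest of the 5 genes, and per length it was at 0.519 and 0.362 FPKM against 2.10 and 2.55 FPKM. The gene is protein coding and spans 577802 bases on the plus strand of chromosome 2, from 124089969 to 124667770 (mm10), with 11 annotated transcripts.

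Of the other class 6 semaphorins, Sema6a rose from 6.88 and 6.32 CPM to 14.1 and 15.3 CPM. Its log2 fold change was 1.16 with a standard error of 0.18 (edgeR adjusted p = 0.000573). Sema6b was at 3.88 and 2.36 CPM against 3.91 and 3.22 CPM and did not pass (edgeR adjusted p = 0.747), with a sign that changed without WT replicate 2. Sema6c, at 4 to 11 counts, was not tested. Among 9 tested semaphorins of other classes 1 was higher, 2 were lower and 6 did not pass. Sema4a, a semaphorin gene of antigen-presenting cells, had a log2 fold change of -0.34 (edgeR adjusted p = 0.00207). Sema4b had 0.61 (edgeR adjusted p = 0.00508), lost without WT replicate 2. Sema4d, a semaphorin gene of T cells, had -0.25 (edgeR adjusted p = 0.0363), lost with library totals alone as the scaling and without WT replicate 1 or KO replicate 1.

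Of 7 tested genes for receptors and coreceptors of Sema6D or, for Nrp1, of semaphorins more widely, 2 were higher, 2 were lower and 3 did not pass. Plxna1, the gene of its main plexin, was at 34.3 and 32.7 CPM against 31.5 and 35.9 CPM, and the groups overlapped. Ptk7, a coreceptor gene with a kinase domain thought inactive, rose from 7.05 and 7.0 CPM to 14.1 and 15.1 CPM (log2 fold change 1.06, edgeR adjusted p = 0.000928). Nrp1, a semaphorin coreceptor gene, fell from 225 and 221 CPM to 157 and 150.3 CPM (log2 fold change -0.54, edgeR adjusted p = 2.77e-05).

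Other genes of this list changed their call with single libraries. Tyrobp, the adaptor gene of Trem2, had a log2 fold change of 0.18 (edgeR adjusted p = 0.0233) and lost its call when any 1 of the 4 libraries was left out and with the replicate number as a block. Kdr, a vascular growth factor receptor gene, had 91 and 174 counts against 62 and 74, a log2 fold change of -1.09 (edgeR adjusted p = 0.0355) that did not pass without WT replicate 2 or with limma-voom. Plxna4 had 46 and 12 counts against 8 and 3 and did not pass (edgeR adjusted p = 0.0570, range 0.0102 to 0.731 over the alternatives). It reached the filter's minimum in the WT libraries only, and it passed the test without WT replicate 2, without KO replicate 1 and with the replicate number as a block. Of 7 tested plexins and neuropilins outside that list, Plxnd1 was higher (log2 fold change 0.31, edgeR adjusted p = 0.0439), a call lost without WT replicate 1 or KO replicate 2 and with DESeq2.

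None of the 3 other STEAP genes passed in either direction, and DESeq2, limma-voom and an unadjusted edgeR p under 0.05 gave 0 as well. Steap3, the reductase gene of maturing red cells, was at 42.9 and 43.0 CPM against 40.7 and 48.2 CPM. Steap1 had 7 and 11 counts against 8 and 16, and Steap2 had 12 and 10 against 37 and 14. The groups overlapped for Steap1 and Steap3 but not for Steap2, and the log2 fold changes of Steap1 and Steap2 had standard errors of 0.80 and 0.72. The signs of Steap1 and Steap3 changed without KO replicate 2. Per length, Steap3 was above Steap4 under WT, with means of 7.23 and 2.81 FPKM, and below it under KO, with 7.52 and 15.1 FPKM.

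Of 15 tested genes of iron and copper handling 5 were higher, none was lower and 10 did not pass. At an unadjusted p under 0.05 1 was lower, and DESeq2 and limma-voom called none lower. Without WT replicate 1 or 2 only 3 were higher, and without KO replicate 2 edgeR called 2 lower. Lcn2, which encodes the siderophore-binding lipocalin-2 of neutrophil granules, rose from 7.93 and 7.04 CPM to 22.9 CPM in both KO libraries (log2 fold change 1.61, edgeR adjusted p = 1.09e-05). Fth1, the ferritin heavy chain gene, rose from 5390 and 5442 CPM to 6829 and 6836 CPM (log2 fold change 0.34, edgeR adjusted p = 0.000368). Slc40a1, the gene of the iron exporter ferroportin, had 0.66 (edgeR adjusted p = 0.00790), lost without WT replicate 1. Tfrc, the transferrin receptor gene, had 0.29 (edgeR adjusted p = 0.00752), lost without WT replicate 2.

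Of 8 tested genes for reported receptors of augurin, 2 were higher, 3 were lower and 3 did not pass. Tlr4 and Cd14, whose products bind bacterial endotoxin, had log2 fold changes of 0.42 and 0.27 (edgeR adjusted p = 0.0151 and 0.00350), lost without WT replicate 2 and without WT replicate 1 respectively. The scavenger receptor genes Cd36, Stab1 and Msr1 fell by 0.44, 0.36 and 0.37 on the log2 scale (edgeR adjusted p = 0.000414, 0.00247 and 0.0010). Ly96, the coreceptor gene of Tlr4, and Olr1, a receptor gene for oxidised lipoprotein, had 0.19 and 0.55 and did not pass (edgeR adjusted p = 0.393 and 0.314). Scarf1, another scavenger receptor gene, was at 19.2 and 16.0 CPM against 14.0 and 19.2 CPM, with overlapping groups and a sign that flipped with library totals alone. Of 13079 genes that reached the filter's minimum under both labels 10.1% were higher and 10.8% lower, with a median log2 fold change of -0.00392. Over 12 lists of relatives, receptors and pathway genes, with the 5 genes left out, 16 of 70 such genes were higher and 9 lower. The median log2 fold change of the 70 was 0.10. Of all 77 tested, 17 were higher, with Hspb2 among them.

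Among the 5 genes, the order of level per length changed little between the labels. Ecrg4 was first (3.19 ± 0.444 FPKM under WT and 37.0 ± 0.419 under KO, SD, n = 2) and Steap4 second (2.81 ± 0.795 and 15.1 ± 1.33 FPKM). Those neighbours overlapped under WT and stood apart under KO. Clu (1.80 ± 0.414 and 7.88 ± 0.839 FPKM) and Cryab (1.21 ± 0.194 and 7.5 ± 0.183 FPKM) stood apart under WT and overlapped under KO. Sema6d was last (0.440 ± 0.111 and 2.33 ± 0.317 FPKM), below the others under both labels. KO replicate 2 was above KO replicate 1 for each of the 5, by 1.02-fold for Ecrg4 to 1.22-fold for Sema6d. Between the WT libraries Ecrg4 and Steap4 were higher in replicate 2, and Cryab, Clu and Sema6d in replicate 1. The summed CPM of the 5 was 25.3 in both WT libraries and 140.4 and 157.0 in the KO libraries.

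All 5 genes had at least 41 counts in every library, so each passed the filter on low counts in both groups. All 5 were among the 10.1% of tested genes called higher (1354 of 13358), which their choice fixes, where 21.2% were called in either direction. For each of the 5 both KO libraries lay above both WT libraries, as for 29.7% of all tested genes. With library totals alone as the scaling 2105 genes were higher, which made up 67.5% of all calls against 47.9%, and without WT replicate 1 or 2 there were 714 or 837. By fold change the 5 ranked 20 (Ecrg4), 43 (Cryab), 56 (Steap4), 61 (Sema6d) and 86 (Clu) among all tested genes. Among the 10040 with a mean of at least 5 CPM they ranked 1, 3, 5, 6 and 7 in that order. Apol7c (11.3-fold) and Il1f9 (5.95-fold) held ranks 2 and 4 there, and Asprv1 (4.35-fold) came just behind Clu.

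**Figure D4:**
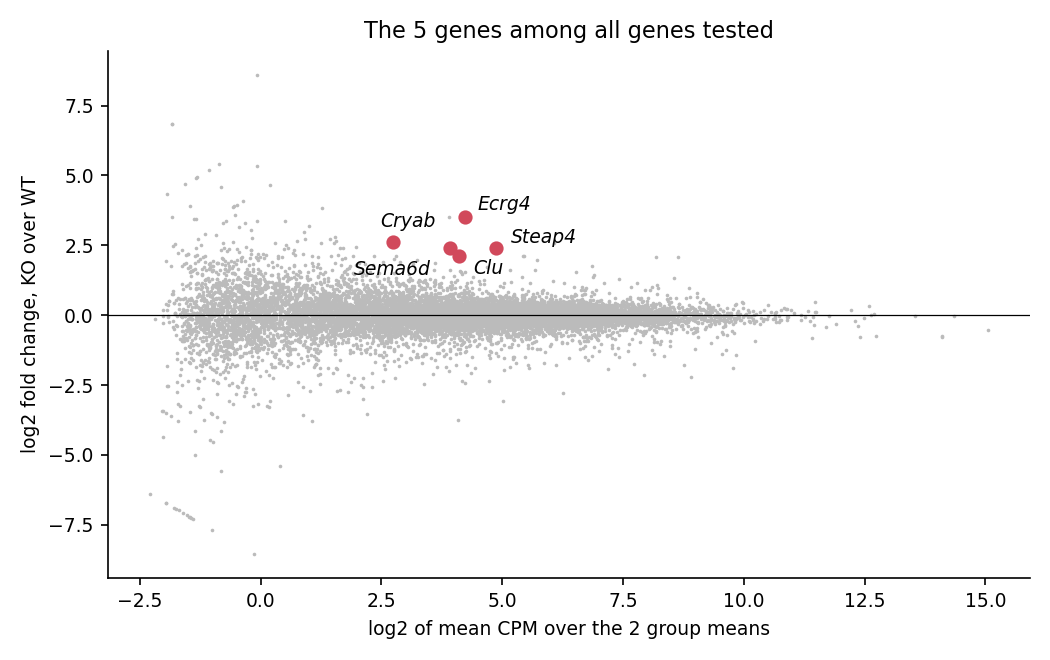
Fitted log2 fold change, KO over WT, of each tested gene (grey) against the log2 of its mean CPM, with the 5 genes in red. The 5 lie between 2.13 and 3.52, above nearly all genes of similar mean CPM.

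Likeness between genes was measured as the Euclidean distance between log2(CPM + 0.5) values over 4 libraries, each gene centred on its own mean. Because the contrast between the labels dominates such a distance, it largely restates how the genes were chosen. Cryab, Sema6d and Clu lay closest together, with Cryab and Sema6d 0.23 apart, Clu and Sema6d 0.24, and Cryab and Clu 0.34. Ecrg4 lay 0.98 to 1.37 from the other 4. Among tested genes with a mean of at least 5 CPM, Ecrg4 was nearest to the apolipoprotein L gene Apol7c (0.27), at 2.41 and 2.44 CPM under WT and 24.4 and 30.5 CPM under KO, and then to the interleukin-1 family gene Il1f9 (0.81) and Steap4 (0.98). S100a9, which encodes a calcium-binding protein of neutrophils, was 0.32 from Cryab and 0.42 from Sema6d. The stefin gene Stfa2l1 (0.27) and the ectonucleotidase gene Entpd3 (0.31) lay next to Clu. Steap4 was nearest to the skin protease gene Asprv1 (0.41), Il1f9 (0.45) and S100a8 (0.47). Stfa2l1 has close paralogs whose reads could be split, so its counts are uncertain.

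On the chromosomes, the 2 nearest tested genes on each side of each of the 5 were taken by position, leaving out Hspb2. Of these 20 neighbours 17 reached the filter's minimum under both labels, and of those 1 was lower, none was higher and 16 did not pass, with a median log2 fold change of -0.07. Of the other 3, 2310030G06Rik, 4.79 kb from Cryab, was called higher, at 5 and 4 counts under WT and 19 and 65 under KO (log2 fold change 3.04, edgeR adjusted p = 0.0171). It reached the minimum in the KO libraries only, which favours such a call, and the call was lost without WT replicate 1, WT replicate 2 or KO replicate 2 and with limma-voom. The lower neighbour was Sri, 63.9 kb from Steap4 (log2 fold change -0.21, edgeR adjusted p = 0.0458), a call lost under 5 of the alternatives, among them library totals alone and the loss of WT replicate 1, WT replicate 2 or KO replicate 2. Uxs1, 4.39 kb from Ecrg4, had 638 and 674 counts against 633 and 775. Scara3, 14.5 kb from Clu, had 62 and 104 counts against 29 and 72 and did not pass (edgeR adjusted p = 0.210).

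Markers of other cell types differed between the same libraries. Of 16 tested neutrophil markers 10 were higher, none was lower and 6 did not pass. The summed level of the 16 was 759 and 779.7 CPM under WT and 2174 and 2164 CPM under KO. No marker was at 0 in any library. Of those that did not pass, Ltf had a log2 fold change of -0.41, and Ly6g had 10 and 10 counts against 9 and 19. Ngp, Camp, Mpo and Elane had 1.86, 1.80, 0.87 and 1.42, with KO replicate 1 well above KO replicate 2 (Ngp 27.4 and 10.8 CPM). Lcn2 is also in this list, and S100a8 and S100a9, the most like Steap4 and Cryab among its genes, each rose by 2.07 on the log2 scale (edgeR adjusted p = 2.04e-10). G0s2 and Csf3r, the receptor gene of granulocyte colony-stimulating factor, rose by 1.54 and 1.30. Of 10 CD8 T cell markers 7 were lower and none was higher, with sums of 3190 and 3245 CPM under WT and 2215 and 2197 CPM under KO. Cd8a, Cd8b1, Cd247 and Cd3e fell by 0.93, 0.96, 0.90 and 0.72 on the log2 scale. No neutrophil marker was lower and no CD8 T cell marker higher at an unadjusted p under 0.05 or with DESeq2 or limma-voom, while edgeR called 1 neutrophil marker lower without KO replicate 1 and with the replicate number as a block.

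**Figure D5:**
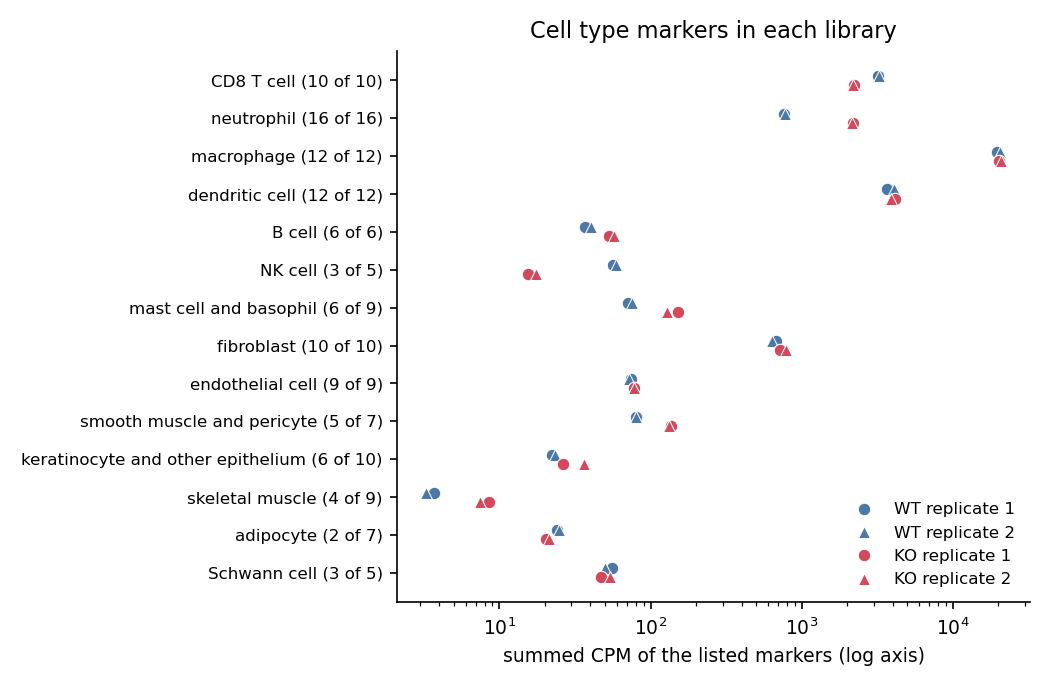
Summed TMM-scaled CPM of each list of cell type markers in each library, on a log axis, with the number of markers listed of those chosen. Neutrophil sums are 759 to 779.7 under WT and 2164 to 2174 under KO, CD8 T cell sums are lower under KO, and macrophage sums overlap between the labels.

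Of 12 macrophage markers 2 were higher and 1 lower, and their sums overlapped, from 19618 to 20402 CPM under WT and 20253 to 20825 CPM under KO. In every library that sum was above the CD8 T cell sum, which was 2197 to 3245 CPM. Lyz2 alone was at 11797 and 12357 CPM under WT and 11562 and 12346 CPM under KO. The samples thus held much RNA of macrophage markers under both labels. Of 12 dendritic cell markers 5 were higher, led by Siglech of plasmacytoid cells (log2 fold change 1.37, edgeR adjusted p = 2.04e-08), and 1 was lower. Among muscle genes, where Cryab and Hspb2 are best known, 4 of 9 chosen skeletal muscle markers were listed, and all 4 were tested. Their sums were 3.67 and 3.28 CPM against 8.58 and 7.45 CPM, and 2 of them, Acta1 and Des, were higher. Des had 13 and 11 counts against 50 and 43 (edgeR adjusted p = 0.0436). That call was lost with DESeq2, with the replicate number as a block, and without WT replicate 1, WT replicate 2 or KO replicate 1. Of 3 smooth muscle and pericyte markers that reached the filter's minimum under both labels Acta2 alone was higher, at 77.8 and 78.7 CPM against 134 and 130.2 CPM. Among markers that reached it under both labels, higher and lower calls were 1 and 0 of 3 for B cells, 0 and 1 of 3 for NK cells, 1 and 0 of 2 for mast cells and basophils, and 3 and 0 of 10 for fibroblasts. They were 1 and 2 of 7 for endothelial cells and 1 and 0 of 5 for epithelium, and none of 1 adipocyte and 2 Schwann cell markers passed with edgeR, DESeq2 or limma-voom or at an unadjusted edgeR p under 0.05. Of the other markers Tpsb2 of mast cells and Rgs5 of pericytes reached it in the KO libraries only and were called higher, and Tek and Emcn of endothelial cells in the WT libraries only and were called lower. Of all tested genes that reached it under both labels 10.1% were higher and 10.8% lower. Over the 14 marker lists 27 of 90 such genes were higher and 12 lower. Of all 96 tested, 30 were higher and 14 lower, or 9 lower without WT replicate 2. Mitochondrial genes took 10.4% and 10.2% of the counts under WT and 6.57% and 6.99% under KO. The part of these cell types and of the mitochondrial share in the levels of the 5 genes was not tested.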

How the data were processed

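Each of the 4 libraries had 1 deposited table of read counts and FPKM values per gene, per the file headers. The submitters' processing notes list Bowtie2, featureCounts, Trim Galore 0.4.4, DESeq2, edgeR and the build mm10, without roles. The strand setting is not given in the sources used here, nor is the annotation. FPKM as deposited by the authors served for levels per length only. Dividing counts by them gave lengths equal to GENCODE M21 exon lengths within 0.1% for 98.3% of genes with at least 50 counts. Ecrg4 was matched to M21 through a RefSeq synonym.

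The test was edgeR's quasi-likelihood test (edgeR 4.0.16, R 4.3.3) with TMM factors, robust glmQLFit and filterByExpr at its minimum of 10 counts and 15 in total. Calls were made at a Benjamini-Hochberg adjusted p under 0.05. Of 14082 genes, each with at least 20 counts in all, 724 were removed. A gene passed the filter through 1 group only where no library of the other group reached the filter's minimum level; such genes are left out of counts over lists where stated. Common biological variation was 9.31%. Replicates exceeded counting noise (chi-square per degree of freedom 7.39 for WT and 9.72 for KO), so none were merged. Tested on simulated counts of this comparison (13049 genes), it found 65.1% of the genes simulated with a 1.5-fold change, 79.5% for 2-fold, 87.2% for 3-fold and 95.9% for 4-fold. False calls made up 5.42%. The simulation changed far fewer genes than the 2826 called here, and genes of like level were given the same spread. These shares may therefore not hold for the real counts. Alternatives were other scalings and filters, a prior count of 2, DESeq2 1.42.0, limma-voom (limma 3.58.1), a block for the replicate number, and the loss of each library in turn.

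The 5 genes and all lists were chosen with earlier results of these data known. Named were the 5 genes and Hspb2, every gene of the STEAP, class 6 semaphorin, small heat shock protein and receptor lists, at most 4 called genes of each other list by smallest p, and the 3 genes most like each of the 5, leaving out unnamed genes. Not all genes of the marker lists that this rule takes are described. Some genes that the rule takes are not reported here. Chromosomal neighbours were added by position. A planned comparison of protein sequences was not run.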

Additional observations from a re-analysis of the deposited data

How the results depend on the processing

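Each of the 5 genes kept its direction under every alternative run. Leaving out 1 library moved the log2 fold change within 3.39 to 3.67 for Ecrg4, 2.47 to 2.80 for Cryab, 1.91 to 2.38 for Clu, 2.16 to 2.68 for Sema6d and 2.16 to 2.74 for Steap4, and the extremes came from leaving out a WT library. Over all genes, 1354 higher and 1472 lower calls became 714 to 1605 and 831 to 1787 with 1 library left out, and library totals alone gave 2105 higher. With 1 library left out, 11 to 15 of the relatives, receptors and pathway genes were higher and 9 to 18 cell type markers were lower. Signs changed for genes that did not pass. With 1 library left out the log2 fold change ran from -0.39 to 0.24 for Hspb6, -1.15 to 0.10 for Hspb8, -0.33 to 0.12 for Scarf1, -0.12 to 0.59 for Sema6b, -0.06 to 0.40 for Smad4, -0.29 to 0.68 for Steap1, -0.08 to 0.17 for Steap3 and -0.09 to 0.10 for Plxna1. With library totals alone it was 0.000612 for Scarf1 and 0.00139 for Trem2. The cause was not tested. Of 74 named genes 45 kept direction and call under every alternative. In the labels same-numbered libraries share only a number, and the labels do not say whether they were handled together. The correlation of their deviations was -0.0103. The replicate block gave 1393 higher and 1522 lower genes. Its log2 fold changes were 3.53 for Ecrg4, 2.63 for Cryab, 2.13 for Clu, 2.40 for Sema6d and 2.44 for Steap4. Where a library is left out, the lone library of its group is assumed to vary like the other group. With 2 libraries a group, genes of few counts such as Steap1, Steap2, Plxna4 and Vldlr have wide errors, and a difference in them may not be detectable at this depth.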
